A study of Homo sapiens with 18 samples.

Results

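The arrestin family was examined in HEK293 cells as 7 genes: the β-arrestins ARRB1 and ARRB2 and the α-arrestins ARRDC1, ARRDC2, ARRDC3, ARRDC4 and TXNIP. They were chosen by name, as 7 of the 23925 genes with a count, and for ARRB1 and ARRB2 each transcript was also followed separately. HEK293 is a line derived from human embryonic kidney. It was used as wildtype cells and as derivatives made with CRISPR-Cas9, β-arrestin1/2 KO cells, which lack both β-arrestins, and Gαs KO cells, which lack the G protein subunit encoded by GNAS. In all 6 groups the cells had been transfected with a plasmid and had been starved of serum overnight. At 48 h after transfection they were given vehicle (basal) or 1 μM isoproterenol, a β-adrenergic agonist, for 1 h. Each group had 3 biological replicates, which makes 18 libraries. The bases that were edited, and whether a KO line is a single clone, are not given in the sources used here, so the loss of the targeted genes cannot be told apart from other differences between the lines.

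β-arrestins bind G protein-coupled receptors that receptor kinases have phosphorylated, uncouple them from the G protein and link them to clathrin and its adaptor AP2, through which the receptors are taken up. Receptors that couple to Gαs raise cAMP when they are activated. α-Arrestins share the arrestin fold, and several of them recruit ubiquitin ligases of the NEDD4 type to membrane proteins. TXNIP, the thioredoxin-interacting protein, binds thioredoxin and limits glucose uptake, and its transcription responds to glucose through MondoA or ChREBP, which bind E-box elements together with MLX. ARRDC4, its close relative, also limits glucose uptake.

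The main transcripts of each β-arrestin gene differ by short coding stretches, which are shown because the counts of these transcripts are compared below. ARRB1-202 (ENST00000420843), the long form of β-arrestin1, holds an exon that ARRB1-201 (ENST00000360025) lacks, exon 13 at chr11:75271701-75271724 on the minus strand (GRCh38). ARRB2-201 (ENST00000269260) holds an exon that ARRB2-202 (ENST00000346341) lacks, exon 4 at chr17:4716147-4716191 on the plus strand. ARRB2-202 instead holds additional bases at the start of its exon 13, chr17:4720550-4720585. The stretches measured 24, 45 and 36 bases, and all of them keep the reading frame.
ARRB1-202 exon 13: cctgttgggagatcttgcatccag
ARRB2-201 exon 4: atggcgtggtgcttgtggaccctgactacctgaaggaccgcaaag
ARRB2-202 start of exon 13: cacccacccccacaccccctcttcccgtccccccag

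TXNIP, ARRDC3 and ARRDC4 were the α-arrestin genes called higher in Gαs KO than in wildtype cells in both states with all libraries, and the bases just upstream of their annotated starts are shown for that reason, 5′ to 3′ on the strand of the gene (RefSeq, GRCh38.p14). Capitals mark the E-box CACGTG. The windows lie at chr1:145996601-145996829 (minus strand) for TXNIP, chr5:91383360-91383567 (minus strand) for ARRDC3 and chr15:97960453-97960697 (plus strand) for ARRDC4.
TXNIP upstream: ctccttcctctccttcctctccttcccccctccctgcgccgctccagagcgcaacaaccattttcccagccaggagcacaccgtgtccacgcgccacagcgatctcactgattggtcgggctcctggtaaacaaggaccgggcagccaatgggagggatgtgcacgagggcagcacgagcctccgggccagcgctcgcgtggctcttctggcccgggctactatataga
ARRDC3 upstream: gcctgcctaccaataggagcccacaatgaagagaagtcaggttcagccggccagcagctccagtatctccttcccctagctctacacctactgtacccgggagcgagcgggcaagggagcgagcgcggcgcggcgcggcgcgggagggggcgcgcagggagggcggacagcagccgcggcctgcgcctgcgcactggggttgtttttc
ARRDC4 upstream: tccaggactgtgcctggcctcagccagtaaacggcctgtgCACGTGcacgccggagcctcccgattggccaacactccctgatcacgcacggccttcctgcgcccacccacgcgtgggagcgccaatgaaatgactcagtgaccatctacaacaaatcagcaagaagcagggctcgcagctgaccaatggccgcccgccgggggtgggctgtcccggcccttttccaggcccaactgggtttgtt

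Motifs were searched on both strands of RefSeq windows from 250 bases before to 50 bases after each start, of which 9 were found for 6 of the 7 genes. The cAMP response element TGACGTCA was in 0 of these 9 windows and in 1.85% of the 35116 windows of all genes. Its core TGACG, which every TGACGTCA also contains, was in 3 of the 9 windows, 1 of ARRB2 and 2 of ARRDC2, and in 24.6% of all windows. The E-box with the exact letters CACGTG was in 1 of the 9, that of ARRDC4, and in 7.26% of all windows. E-box elements that differ from these letters were not searched, so the other windows, those of TXNIP included, may hold some. No window was matched for ARRB1.

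Library totals ran from 17908597 to 25019834 counts. Replicate 1 of the wildtype basal group stood apart: the mean GC content of its counted transcripts was 52.49%, against 49.15 to 50.10% in the other 17 libraries, and its chi-square per gene against its replicates was 134.5 and 105.8, against 9.07 between those replicates. The basal comparisons of the arrestin genes with wildtype cells are therefore given with and without it, and those of the other genes mainly by their counts. The KO labels were checked on the targeted genes. The GNAS level in Gαs KO cells differed from wildtype at basal by a log2 value of -4.32 (edgeR adjusted p = 9.4e-12) and of -4.06 without that library, and the β-arrestin genes are described below. All 7 genes of the HEK293 marker list were measured, NEFM and PAX2 at no more than 3.56 CPM (counts scaled to the size of the library). These 7 summed to 2960 to 3041 CPM in the Gαs KO libraries and to 1707 to 2524 CPM in the other libraries. The 10 markers of leukocytes, endothelium, fibroblasts and hepatocytes summed to 3.12 to 7.46 CPM in the wildtype and β-arrestin1/2 KO libraries and to 19.4 to 21.1 CPM in the Gαs KO libraries, where COL3A1 reached 16.6. CD3E was at 0 in 18 of 18 libraries and PTPRC in 16. In these bulk samples fewer cells with a transcript and less of it per cell cannot be told apart.

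Per unit length, in TPM (counts divided by transcript length and scaled to the library), ARRB2 was the most abundant of the 7 genes in wildtype and Gαs KO cells, and ARRDC1 was in β-arrestin1/2 KO cells. In wildtype cells at basal, ARRB2 stood at 110 TPM (99.2 to 130 over 3 libraries) and was followed by ARRDC1 at 42.3 and ARRB1 at 33.2, whose libraries overlapped. TXNIP and ARRDC2, both at 19.8, overlapped as well, and so did ARRDC4 at 11.4 and ARRDC3 at 7.25. With isoproterenol the order in wildtype cells was ARRB2, ARRDC1, ARRB1, ARRDC2, ARRDC4, TXNIP and ARRDC3, from 102 to 7.41 TPM, with no overlap between neighbours. TXNIP thus moved from the fourth to the sixth place.

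In β-arrestin1/2 KO cells at basal, ARRDC1 led with 67.0 TPM. TXNIP at 37.3 overlapped with ARRB2 at 30.7, which overlapped with ARRB1 at 30.0. ARRDC2 and ARRDC4, both at 14.9, overlapped, and ARRDC3 was lowest at 9.26. With isoproterenol, TXNIP stood at 12.4 TPM and overlapped with ARRDC4 at 14.4, which overlapped with ARRDC2 at 15.3. In Gαs KO cells at basal, TXNIP ranked second with 59.2 TPM, overlapping with ARRDC1 at 53.0 and below ARRB2 at 93.3. ARRDC2 was lowest there at 12.8 TPM, below ARRDC3 at 17.0 and ARRDC4 at 19.1. The order in Gαs KO cells with isoproterenol was the same, with ARRDC3 at 16.9 and ARRDC2 at 14.0 TPM overlapping. The retinal arrestin ARR3 and the α-arrestin ARRDC5 were in the file but too low to be tested, with ARRDC5 at 0 in every library. SAG was not analysed here.

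**Figure D1:**
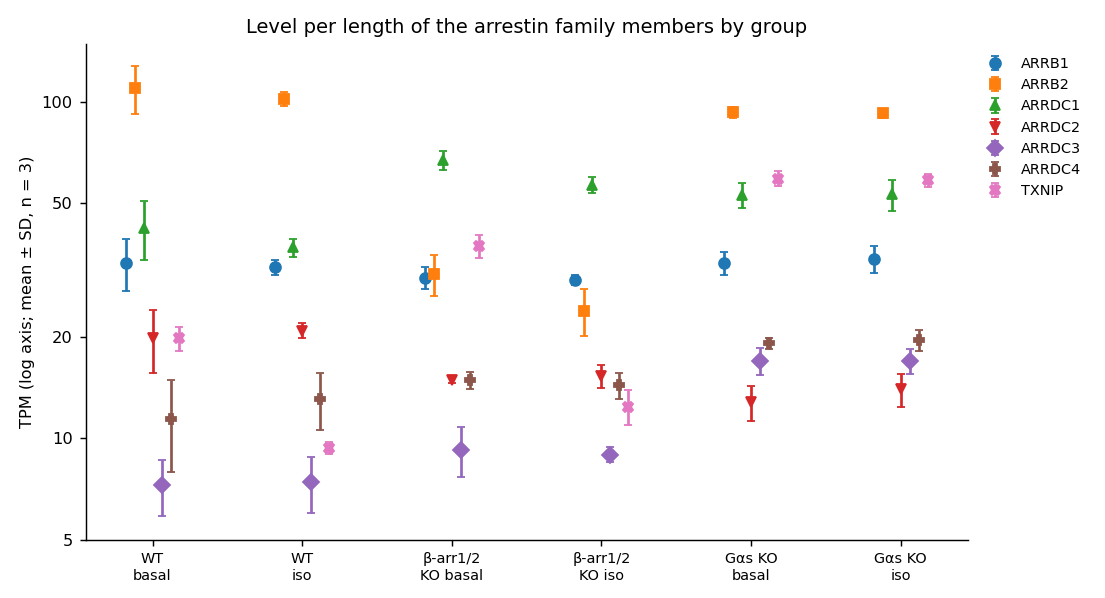
Levels of the 7 arrestin genes per unit length (TPM, log axis) in the 6 groups, with the mean and the SD of 3 libraries. ARRB2 leads in wildtype and Gαs KO cells, at 93.3 to 110 TPM at basal, and falls to 30.7 TPM in β-arrestin1/2 KO cells, while TXNIP changes place between groups.

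ARRB2 (ENSG00000141480, chr17:4710489-4721499, plus strand), which encodes β-arrestin2, was lower in β-arrestin1/2 KO than in wildtype cells. Its levels were 132, 81.6 and 83.2 CPM in the wildtype basal libraries and 23.0, 21.3 and 18.01 CPM in the β-arrestin1/2 KO basal libraries. With isoproterenol they were 86.1, 83.6 and 79.8 CPM in wildtype and 17.8, 15.2 and 18.5 CPM in β-arrestin1/2 KO libraries. The groups did not overlap in either state, which was also the case for 37.5% of all genes tested at basal and 55.8% with isoproterenol. The log2 difference was -2.25 at basal (SE 0.154, edgeR adjusted p = 2.6e-08), and -1.98 without wildtype basal replicate 1 (edgeR adjusted p = 9e-12). With isoproterenol it was -2.28 (SE 0.155, edgeR adjusted p = 2.7e-08), so that about 0.206 of the wildtype level remained.

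ARRB1 (ENSG00000137486, chr11:75264182-75351705, minus strand), which encodes β-arrestin1, was not called different in β-arrestin1/2 KO cells. Its levels were 65.3, 38.5 and 44.9 CPM in the wildtype basal libraries and 41.8, 37.9 and 43.5 CPM in the β-arrestin1/2 KO basal libraries, and these overlapped. The log2 difference was -0.27 at basal (SE 0.138, edgeR adjusted p = 0.14) and -0.02 without wildtype basal replicate 1 (edgeR adjusted p = 0.87). It was -0.42 and called without replicate 2 of that group (edgeR adjusted p = 0.013). With isoproterenol the levels were 45.4, 45.4 and 43.4 CPM in wildtype and 41.4, 42.9 and 43.1 CPM in β-arrestin1/2 KO libraries, a log2 difference of -0.07 (edgeR adjusted p = 0.74). These did not overlap, which was also the case for 55.8% of all genes tested. The ARRB1 counts therefore do not check the label of the line, and the ARRB2 counts do.

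Of the β-arrestin genes, ARRB2 was called lower in Gαs KO cells at basal, a call lost when any of 4 of the 6 libraries was left out, and ARRB1 was not called. ARRB2 stood at 76.97, 71.6 and 73.0 CPM at basal and at 72.9, 73.2 and 73.9 CPM with isoproterenol. The basal log2 difference of -0.42 (SE 0.145, edgeR adjusted p = 0.036) was -0.16 without wildtype basal replicate 1 (edgeR adjusted p = 0.11), and the call was also lost without Gαs KO basal replicate 1, 2 or 3, with values from -0.46 to -0.40. With isoproterenol the difference was -0.18 (edgeR adjusted p = 0.38). ARRB1 stood at 44.1, 49.5 and 46.9 CPM at basal and at 45.9, 51.8 and 48.5 CPM with isoproterenol, and neither difference from wildtype, -0.08 and 0.12, was called (edgeR adjusted p = 0.68 and 0.55). The basal value turned to 0.17 without wildtype basal replicate 1. With isoproterenol the Gαs KO and wildtype libraries did not overlap for ARRB1 or for ARRB2, as for 56.9% of all genes tested.

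**Figure D2:**
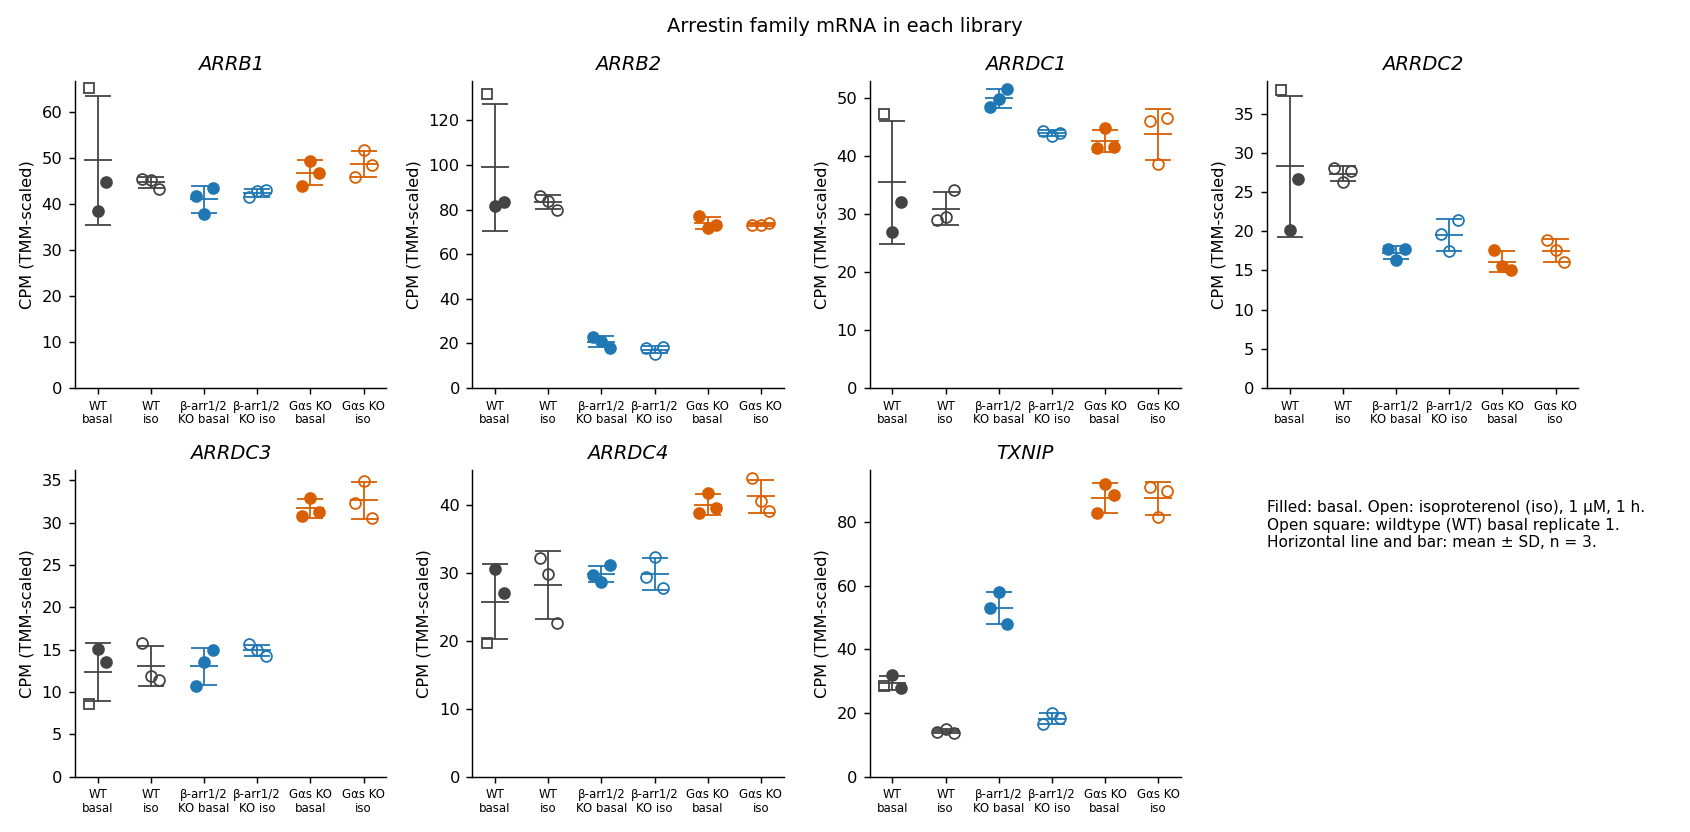
Levels of the 7 arrestin genes (CPM, linear axis from 0) in each of the 18 libraries, by cell line and treatment, with filled points for basal, open points for isoproterenol, an open square for wildtype basal replicate 1, and lines for the mean and SD of 3. ARRB2 lies between 15.2 and 23.0 CPM in β-arrestin1/2 KO cells and at 71.6 CPM or more elsewhere, and TXNIP is lowest in wildtype cells with isoproterenol, at 13.9 to 15.0 CPM.

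ARRB2-201, the most abundant ARRB2 transcript, was called lower in β-arrestin1/2 KO cells in both states, and ARRB2-216 and ARRB2-202 had negative differences of like size that were not called with all libraries, apart from ARRB2-202 with isoproterenol. Of the 20 ARRB2 transcripts in the file, 7 had a mean of at least 10 counts, and the other 13 held 1.07 to 12.2% of the counts of the gene in a library. ARRB2-201 had 74.3, 49.9 and 49.3 CPM in wildtype and 10.2, 8.61 and 8.18 CPM in β-arrestin1/2 KO libraries at basal. The log2 difference was -2.68 (SE 0.173, edgeR adjusted p = 6.8e-07, over all transcripts) and -2.46 without wildtype basal replicate 1, and with isoproterenol it was -2.45 (SE 0.172, edgeR adjusted p = 1.8e-06). ARRB2-216, the next most abundant at basal, had 21.4, 18.4 and 14.2 CPM in wildtype and 4.02, 4.52 and 3.27 CPM in β-arrestin1/2 KO libraries at basal, without overlap. Its log2 difference was -2.19 at basal (SE 0.818, edgeR adjusted p = 0.17) and -3.02 with isoproterenol (SE 0.848, edgeR adjusted p = 0.068), neither called, but the latter was called without β-arrestin1/2 KO isoproterenol replicate 1, where ARRB2-216 was at 0 (-2.43, edgeR adjusted p = 3e-04). ARRB2-202, which lacks exon 4, had 7.53, 7.10 and 7.93 CPM in wildtype and 3.01, 2.17 and 0.339 CPM in β-arrestin1/2 KO libraries at basal. These did not overlap, but the log2 difference of -2.02 was not called (SE 0.573, edgeR adjusted p = 0.062), nor was it without wildtype basal replicate 1, at the same value. With isoproterenol it was -2.72 and called (SE 0.591, edgeR adjusted p = 0.017), a call that was lost without wildtype isoproterenol replicate 1 or β-arrestin1/2 KO isoproterenol replicate 1 or 2 (log2 difference of -2.37, -2.53 and -2.64). Of the 14 transcripts of both genes that were tested, 1 was called at basal and 2 with isoproterenol, all of them lower, against 4.72 and 3.89% of all transcripts. How many of all transcripts had levels without overlap was not counted. ARRB2-219 differed by -1.59 at basal (edgeR adjusted p = 0.061) and was called lower without wildtype basal replicate 2, at -1.90 (edgeR adjusted p = 0.024).

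ARRB2-201 was called lower in Gαs KO cells at basal, at -0.64 (SE 0.163, edgeR adjusted p = 0.036), against 4.47% of all transcripts called in either direction. The call was lost without wildtype basal replicate 1, at -0.42 (edgeR adjusted p = 0.069), and without Gαs KO basal replicate 1, 2 or 3. With isoproterenol ARRB2-201 differed by -0.09 (edgeR adjusted p = 0.93). None of the 14 transcripts was called by edgeR there (2 had an unadjusted p under 0.05), against 3.94% of all transcripts. None was called by edgeR in a response to isoproterenol either, where at most 1 per cell line had an unadjusted p under 0.05 and where 0.0902% of all transcripts were called in wildtype, 0.00328% in Gαs KO and 0.193% in β-arrestin1/2 KO cells. Estimates for transcripts that overlap in sequence are not independent of each other.

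Shares of the counts of a gene were compared between lines for the 9 named transcripts, by exact permutation tests that are two-sided. An unadjusted p under 0.05 was found for 6 of the 9 shares in β-arrestin1/2 KO and 3 of 9 in Gαs KO cells. Among the 43865 transcripts of all genes compared in the same way, 12.9 and 18.5% had one. Adjusted over all of these in both lines, none of the 9 passed, and neither did any other transcript (0%). The smallest p that such a test can give, 0.0022, became 0.072 after this adjustment. No share could therefore pass, even without overlap between the lines, and this result cannot decide whether a share differs. No share is called, and each is given with its unadjusted p and the p adjusted in this way. Of the ARRB1 counts, ARRB1-201 and ARRB1-202 held nearly all, and the other 10 transcripts held at most 1.38% in a library. The short form, ARRB1-201, took 28.3 to 36.3% of the ARRB1 counts in the 6 wildtype libraries, with a median of 32.4%, and 20.7 to 29.1% in the 6 β-arrestin1/2 KO libraries, with a median of 23.3%. The mean shares were 32.8 ± 3.09% and 24.0 ± 3.27% (SD, n = 6; exact permutation test, unadjusted p = 0.0043, adjusted p = 0.099). The share in Gαs KO cells was 24.9 ± 3.67% (SD, n = 6; exact permutation test, unadjusted p = 0.0065, adjusted p = 0.12). The long form, ARRB1-202, which holds exon 13, took 66.5 ± 2.60% in wildtype, 74.5 ± 3.49% in Gαs KO and 75.5 ± 2.97% in β-arrestin1/2 KO cells. Its shares of 63.7 to 70.6% in wildtype and 70.9 to 79.0% in β-arrestin1/2 KO libraries did not overlap (exact permutation test, unadjusted p = 0.0022, adjusted p = 0.072). As levels, neither transcript was called in any comparison by edgeR: ARRB1-201 differed by -0.67 at basal in β-arrestin1/2 KO cells (SE 0.225, edgeR adjusted p = 0.12) and by -0.42 without wildtype basal replicate 1, and ARRB1-202 by -0.00 (edgeR adjusted p = 1) and 0.14.

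Of the ARRB2 counts, ARRB2-201 took 56.1 ± 5.85% in wildtype and 43.9 ± 7.02% in β-arrestin1/2 KO libraries (SD, n = 6; exact permutation test, unadjusted p = 0.011, adjusted p = 0.15). ARRB2-219 (ENST00000576235), annotated as a substrate of nonsense-mediated decay, took 4.75 to 9.80% in the wildtype and 10.5 to 17.4% in the β-arrestin1/2 KO libraries, without overlap. Its mean share was 7.57 ± 1.94% in wildtype and 13.4 ± 2.32% in β-arrestin1/2 KO libraries (SD, n = 6; exact permutation test, unadjusted p = 0.0022, adjusted p = 0.072). In Gαs KO libraries it was 4.44 ± 1.47% (SD, n = 6; exact permutation test, unadjusted p = 0.011, adjusted p = 0.15).

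ARRB2-207 (ENST00000571206) is the named ARRB2 transcript with the most downstream start, at position 4715589, against 4710489 to 4710724 for the others. It took 0.957% of the ARRB2 counts in wildtype and 4.31% in β-arrestin1/2 KO libraries, again without overlap (exact permutation test, n = 6 and 6, unadjusted p = 0.0022, adjusted p = 0.072). Its level was 1.27, 0.954 and 0.835 CPM in wildtype and 0.893, 1.02 and 0.847 CPM in β-arrestin1/2 KO libraries at basal. The levels thus overlapped where the shares did not. ARRB2-213, which retains an intron, took 0.523 and 1.99% (exact permutation test, n = 6 and 6, unadjusted p = 0.017, adjusted p = 0.19). For ARRB2-202, ARRB2-210 and ARRB2-216 the unadjusted p was 0.55, 0.052 and 0.18 (exact permutation test).

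The smallest p that 6 libraries against 6 can give is 0.0022. Shares of a gene sum to 100%, both lines were set against the same wildtype libraries, and basal and isoproterenol libraries of a line were pooled, so these tests are not independent.

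**Figure D3:**
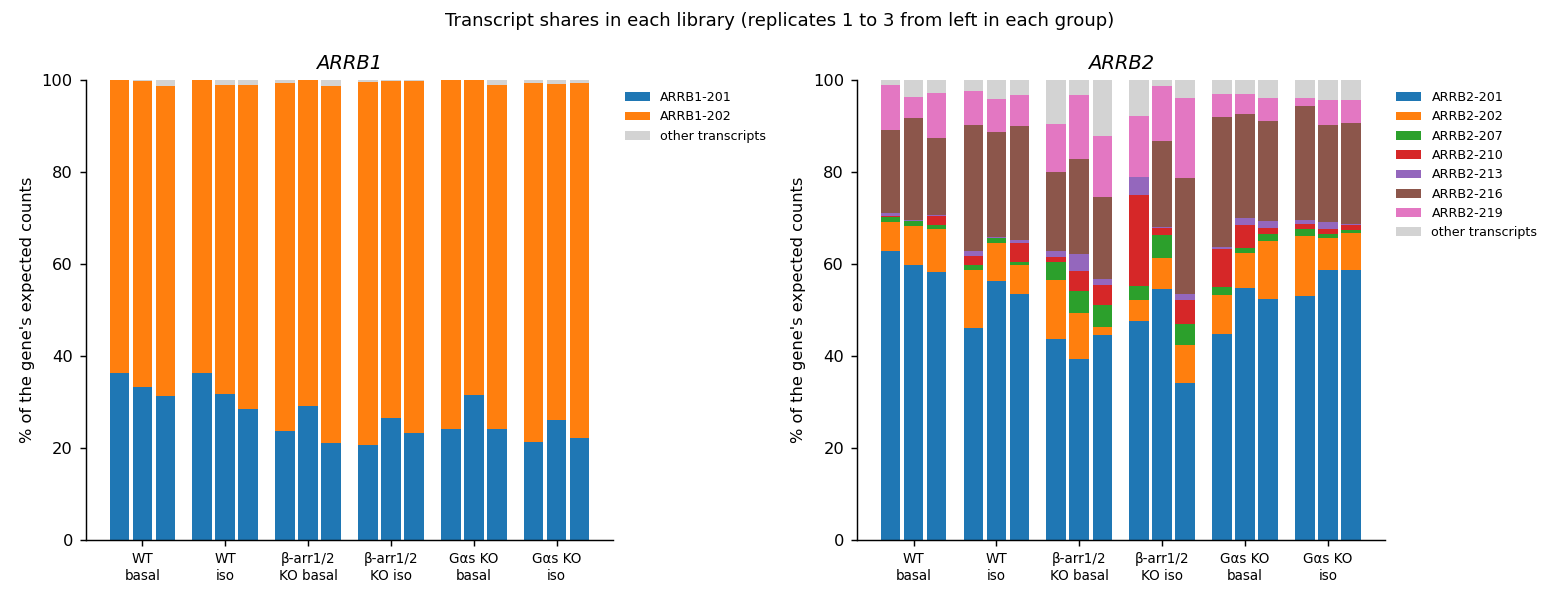
Share of the ARRB1 counts (left) and ARRB2 counts (right) on each named transcript, in percent, with a stacked bar for each of the 18 libraries in their 6 groups and grey for all other transcripts. ARRB1-202 lies at 63.7 to 70.6% in wildtype and 70.9 to 79.0% in β-arrestin1/2 KO cells, and ARRB2-219 at 4.75 to 9.80% and 10.5 to 17.4%.

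The response to isoproterenol asks which arrestin transcripts change within 1 h of receptor stimulation, and TXNIP (ENSG00000265972, chr1:145992435-145996600, minus strand) was the single one called. In wildtype cells TXNIP fell from 28.5, 32.0 and 27.8 CPM at basal to 13.9, 15.0 and 13.9 CPM with isoproterenol. In β-arrestin1/2 KO cells it fell from 53.1, 58.0 and 48.1 to 16.4, 20.03 and 18.3 CPM. In both lines every isoproterenol library lay below every basal library, as for 9.01% of all genes in wildtype and 29.7% in β-arrestin1/2 KO libraries in either direction. TXNIP in Gαs KO cells was at 82.8, 92.1 and 88.4 CPM at basal and at 91.0, 81.7 and 89.9 CPM with isoproterenol, and the groups overlapped.

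The log2 fold change was -1.04 in wildtype cells (SE 0.099, edgeR adjusted p = 1.4e-05), which left 0.485 of the basal level. It was -1.54 in β-arrestin1/2 KO cells (SE 0.0976, edgeR adjusted p = 4.1e-08), which left 0.344. The change in Gαs KO cells was -0.00 (SE 0.0927, edgeR adjusted p = 1). TXNIP was 1 of the 7 arrestin genes called in each of these lines, against 0.464% of all genes called in wildtype cells (0.0515% lower) and 1.13% in the β-arrestin1/2 KO line (0.174% lower). In Gαs KO cells 0 of the 7 arrestin genes and 0% of all genes were called by edgeR. There 0 of the 7 had an unadjusted p under 0.05 and 0 were called by DESeq2, against 163 genes with an unadjusted p under 0.05 and 9 called by DESeq2 among all. Without wildtype basal replicate 1 the wildtype change of TXNIP was -1.07 (edgeR adjusted p = 3.7e-06). Fitted on the wildtype libraries alone it was -1.04 and not called (edgeR adjusted p = 0.088), so that 0 of the 7 genes were called in that response.

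The TXNIP response differed between Gαs KO and wildtype cells by 1.04 on the log2 scale (SE 0.135, edgeR adjusted p = 0.0011 for the interaction). It was the single gene called higher in this difference by edgeR with all libraries, 0.00644% of those tested, where 0.161% were called in either direction, while 7 genes were without wildtype basal replicate 1 and 15 by DESeq2. Between β-arrestin1/2 KO and wildtype cells the fall of TXNIP was larger by 0.50 (SE 0.138, unadjusted p = 0.0023, edgeR adjusted p = 0.29) and did not pass the test, where 0.168% of all genes were called in either direction. Without wildtype basal replicate 1 the value was -0.48 and passed (edgeR adjusted p = 0.036), where 8.25% of all genes were called, and over the other left-out libraries and alternatives it ran from -0.57 to -0.43. Thus 0 of the 7 arrestin genes were called in this difference by edgeR (1 had an unadjusted p under 0.05) and 0 by DESeq2. The mean GC content of the counted transcripts was 49.76 to 50.10% in the β-arrestin1/2 KO basal and 49.29 to 49.43% in the isoproterenol libraries. With offsets for GC content and transcript length the TXNIP change in this line was -1.60 (edgeR adjusted p = 9.8e-09).

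The other 6 arrestin genes were not called in any response or difference of responses. In wildtype cells their log2 changes ran from -0.25 for ARRB2 (edgeR adjusted p = 0.53) to 0.13 for ARRDC4 (edgeR adjusted p = 0.68). Without wildtype basal replicate 1 these 6 values changed sign, at 0.10 for ARRB1, 0.01 for ARRB2, 0.06 for ARRDC1, 0.22 for ARRDC2, -0.14 for ARRDC3 and -0.03 for ARRDC4, and none was called by edgeR. In β-arrestin1/2 KO cells they ran from -0.27 for ARRB2 (edgeR adjusted p = 0.69) to 0.20 for ARRDC3 (edgeR adjusted p = 0.82). ARRDC3, an α-arrestin that has been linked to the handling of cell-surface receptors, had 8.54, 15.0 and 13.6 CPM at basal and 15.8, 11.8 and 11.5 CPM with isoproterenol in wildtype cells, which overlapped. Its change with all libraries was 0.07 (edgeR adjusted p = 0.86). ARRDC4 had 19.7, 30.5 and 27.1 CPM at basal and 32.2, 29.9 and 22.6 CPM with isoproterenol in wildtype cells, also with overlap.

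**Figure D4:**
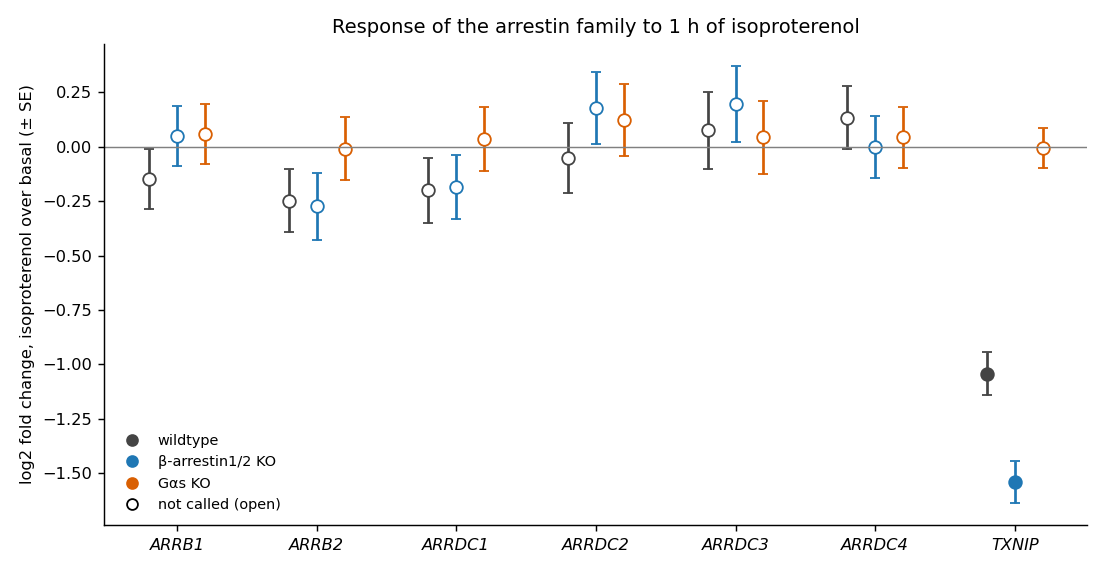
Log2 fold change with isoproterenol of the 7 arrestin genes in the 3 cell lines, with bars for the standard error of the edgeR fit and filled points for called values. TXNIP lies at -1.04, -1.54 and -0.00, and the other genes lie between -0.27 and 0.20.

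Apart from isoproterenol, the KO lines differed from wildtype cells in several α-arrestins. At basal the β-arrestin1/2 KO line had 4 of the 7 arrestin genes called, against 33.6% of all genes, and 5 of 7 were in Gαs KO cells, against 31.3%. With isoproterenol 4 of 7 were called in β-arrestin1/2 KO cells, against 30.0%, and 5 of 7 in Gαs KO cells, against 29.9%. In β-arrestin1/2 KO cells the 4 included ARRB2, a gene targeted in that line, in both states. In Gαs KO cells the basal 5 included ARRB2 too, and the rest of the called genes were α-arrestins. The basal counts were also 4 and 5 of 7 without wildtype basal replicate 1, against 46.7 and 45.9%. These lines were set against the same wildtype libraries. The TXNIP level was higher in both KO lines. At basal it was 1.81 times the wildtype level in β-arrestin1/2 KO cells (log2 0.85, SE 0.0954, edgeR adjusted p = 5.4e-06) and 2.98 times in Gαs KO cells (log2 1.58, SE 0.0962, edgeR adjusted p = 6.8e-09). Without wildtype basal replicate 1 these differences were 0.84 and 1.55. With isoproterenol the TXNIP difference was 0.36 in β-arrestin1/2 KO cells (SE 0.0996, edgeR adjusted p = 0.013), a call that was lost without β-arrestin1/2 KO isoproterenol replicate 2 (0.28, edgeR adjusted p = 0.068). In Gαs KO cells it was 2.62 (SE 0.101, edgeR adjusted p = 2.1e-11), or 6.13 times the wildtype level.

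ARRDC3 (ENSG00000113369, chr5:91368724-91383359, minus strand) and ARRDC4 (ENSG00000140450, chr15:97960698-97973838, plus strand) were higher in Gαs KO cells. The ARRDC3 level was 30.8, 33.0 and 31.3 CPM in Gαs KO cells at basal, above all wildtype libraries, and 10.6, 13.5 and 15.0 CPM in β-arrestin1/2 KO cells. Gαs KO and wildtype libraries did not overlap for 38.0% of all genes at basal and 56.9% with isoproterenol. The log2 difference of ARRDC3 between Gαs KO and wildtype cells was 1.36 (SE 0.176, edgeR adjusted p = 2.4e-05), 1.15 without wildtype basal replicate 1 (edgeR adjusted p = 3.2e-06) and 1.32 with isoproterenol (edgeR adjusted p = 2.9e-05). In β-arrestin1/2 KO cells it was 0.08 at basal (edgeR adjusted p = 0.78) and 0.20 with isoproterenol (edgeR adjusted p = 0.44), neither called, and the basal value turned to -0.13 without wildtype basal replicate 1.

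ARRDC4 stood at 38.8, 41.8 and 39.5 CPM in Gαs KO and at 29.7, 28.7 and 31.1 CPM in β-arrestin1/2 KO cells at basal. Its log2 difference from wildtype was 0.64 in Gαs KO cells at basal (SE 0.143, edgeR adjusted p = 0.0028), 0.47 without wildtype basal replicate 1 (edgeR adjusted p = 0.0025) and 0.55 with isoproterenol (edgeR adjusted p = 0.008). In β-arrestin1/2 KO cells it was 0.21 at basal and 0.08 with isoproterenol, neither called (edgeR adjusted p = 0.27 and 0.72), and the basal value was 0.06 without wildtype basal replicate 1. The summed levels of the HEK293 markers and of the markers of other cell types were also both higher in the Gαs KO libraries. Among the latter, COL3A1 alone reached 16.6 CPM there. The part of these markers in the ARRDC3 and ARRDC4 differences was not tested.

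ARRDC2 (ENSG00000105643, chr19:18001132-18014102, plus strand) was lower in both KO lines. It had 38.0, 20.2 and 26.7 CPM in the wildtype basal libraries, 17.8, 16.3 and 17.8 CPM in β-arrestin1/2 KO cells and 17.6, 15.6 and 15.1 CPM in Gαs KO cells, with both KO groups below all wildtype libraries. The log2 difference at basal was -0.71 in β-arrestin1/2 KO cells (SE 0.165, edgeR adjusted p = 0.0032) and -0.82 in Gαs KO cells (SE 0.165, edgeR adjusted p = 0.0013). Without wildtype basal replicate 1 these were -0.44 and -0.54 (edgeR adjusted p = 0.0058 and 0.0011). With isoproterenol the difference was -0.49 in β-arrestin1/2 KO cells (edgeR adjusted p = 0.035) and -0.64 in Gαs KO cells (edgeR adjusted p = 0.0074). The -0.49 lost its call without any 1 wildtype isoproterenol library or without β-arrestin1/2 KO isoproterenol replicate 1 or 2, with values from -0.52 to -0.41.

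ARRDC1 (ENSG00000197070, chr9:137605654-137615360, plus strand), an α-arrestin that drives the budding of vesicles from the plasma membrane, was higher in β-arrestin1/2 KO cells. It had 47.2, 26.9 and 32.1 CPM in the wildtype basal libraries and 48.4, 49.7 and 51.5 CPM in β-arrestin1/2 KO cells. The groups did not overlap, although wildtype basal replicate 1 came within about 1 CPM of the β-arrestin1/2 KO libraries. The log2 difference was 0.49 (SE 0.148, edgeR adjusted p = 0.017) and 0.76 without that library (edgeR adjusted p = 3.7e-06), but it lost its call without replicate 2 (0.34, edgeR adjusted p = 0.058) or replicate 3 (0.43, edgeR adjusted p = 0.059) of the group. With isoproterenol it was 0.51 (SE 0.148, edgeR adjusted p = 0.016), lost without wildtype isoproterenol replicate 1 or 2 (0.47 and 0.48). In Gαs KO cells ARRDC1 had 41.4, 44.8 and 41.6 CPM at basal, a difference of 0.27 that was not called (edgeR adjusted p = 0.19) and that was 0.53 and called without wildtype basal replicate 1 (edgeR adjusted p = 0.00018). With isoproterenol that difference was 0.50 (edgeR adjusted p = 0.017), lost without wildtype isoproterenol replicate 1 or 2 or Gαs KO isoproterenol replicate 1 or 3, with values from 0.45 to 0.47.

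**Figure D5:**
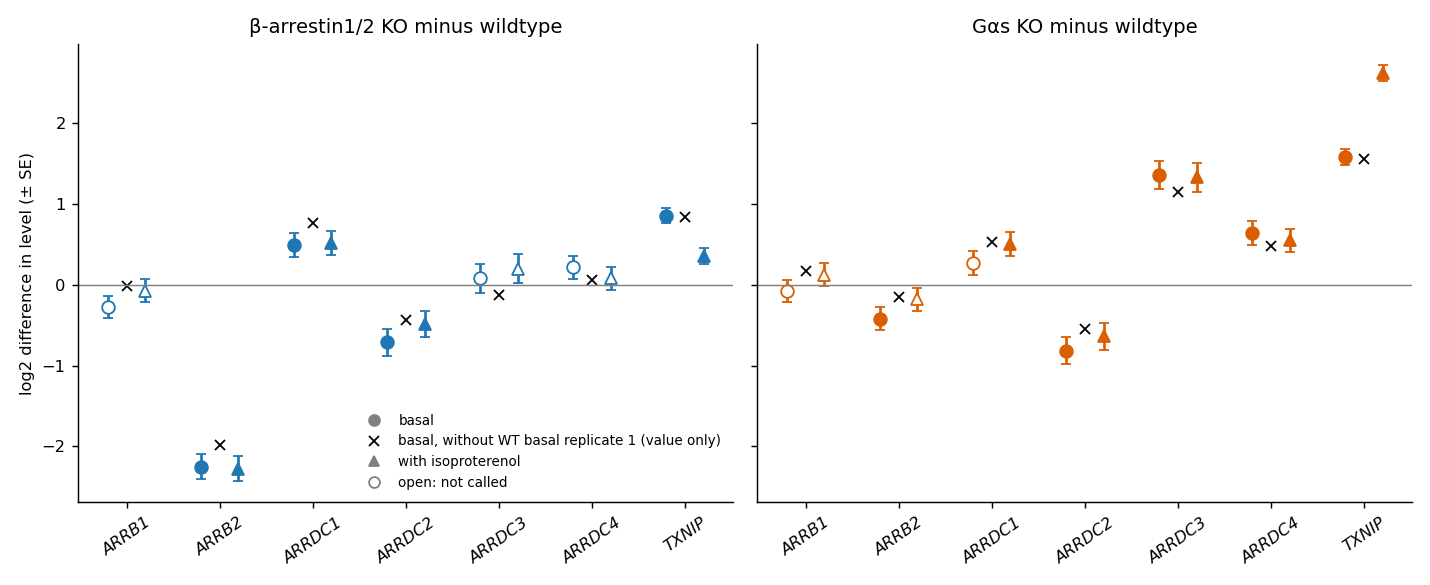
Log2 difference of the 7 arrestin genes between each KO line and wildtype cells, at basal and with isoproterenol, with circles for basal, triangles for isoproterenol, bars for the standard error, open symbols for values not called and crosses for the basal values without wildtype basal replicate 1. TXNIP reaches 2.62 in Gαs KO cells with isoproterenol, ARRDC3 lies at 1.36 and 1.32 in Gαs KO cells and ARRB2 at -2.25 and -2.28 in β-arrestin1/2 KO cells.

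Genes that act with arrestins were followed as fixed lists. None of the tested genes of these lists was called by edgeR in any response to isoproterenol or difference of responses. Counts at an unadjusted p under 0.05 were at most 2 per list and comparison, both in clathrin and AP2 and in the thioredoxin and MondoA list in wildtype cells, and DESeq2 called 1 gene of the latter list in the β-arrestin1/2 KO difference. The list medians of the responses ran from -0.19 for clathrin and AP2 in wildtype cells to 0.06 for the VPS26 subunits in Gαs KO cells, where the medians of all genes were -0.00 in each line.

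Between the lines, the share of these genes that was called lay near or below that of all genes. At basal 12 of the 34 tested were called in β-arrestin1/2 KO cells (35.3%, against 33.6% of all genes) and 6 in Gαs KO cells (17.6%, against 31.3%), and with isoproterenol 11 (32.4%, against 30.0%) and 12 (35.3%, against 29.9%). At basal 16 were called in each line without wildtype basal replicate 1 (47.1%, against 46.7 and 45.9% of all genes). Of the 12 calls 2 were lost then, GRK5 (-0.29) and AP2S1 (-0.15), and of the 6 none was. The called members are therefore given as values, with no result read for a list. Of 5 tested receptor kinases, which phosphorylate active receptors, 2 were lower in β-arrestin1/2 KO cells at basal, GRK3 at -0.77 (edgeR adjusted p = 6.4e-05) and GRK5 at -0.53 (edgeR adjusted p = 0.017). The list median was -0.12 with all libraries, against 0.02 for all genes. Without wildtype basal replicate 1 GRK3 at -0.88 was lower, and GRK2 at 0.45 and GRK6 at 0.14 were called higher. With all libraries, GRK3 in Gαs KO cells at basal was lower at -0.74 and GRK2 higher at 0.43, with a list median of -0.08 against 0.01. Without wildtype basal replicate 1 GRK6 at 0.18 was also called higher there. With isoproterenol GRK3 was at -0.85 and GRK2 at 0.29 in β-arrestin1/2 KO cells and at -0.98 and 0.56 in Gαs KO cells, and all 4 values were called.

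Of the 9 genes of clathrin and AP2, the coat through which β-arrestins bring receptors into the cell, 4 were lower and 0 higher in β-arrestin1/2 KO cells at basal, where 17.9% of all genes were lower. These were the heavy chains CLTCL1 at -1.14 (edgeR adjusted p = 4.3e-05) and CLTC at -0.33 (edgeR adjusted p = 0.007), and the AP2 subunits AP2B1 at -0.73 (edgeR adjusted p = 2.3e-07) and AP2S1 at -0.42 (edgeR adjusted p = 0.031). The list median was -0.20 with all libraries, against 0.02 for all genes. Without wildtype basal replicate 1 AP2S1 was not called (-0.15), and CLTB at 0.43 and AP2A1 at 0.34 were called higher. AP2B1 encodes the subunit that β-arrestins bind. With isoproterenol 3 of the 9 genes were lower, CLTCL1 at -0.81, AP2B1 at -0.63 and CLTC at -0.24. In Gαs KO cells only AP2B1 of this list was called at basal with all libraries, at -0.18 (edgeR adjusted p = 0.031). Without wildtype basal replicate 1 CLTC at -0.31 was also called lower there. AP2S1 at 0.24, AP2M1 at 0.28, CLTB at 0.59 and AP2A1 at 0.49 were then called higher. With isoproterenol AP2B1 at -0.21 was lower in Gαs KO cells while AP2M1 at 0.29 and AP2A1 at 0.45 were higher.

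Of the 9 ubiquitin ligases of the NEDD4 type, which α-arrestins recruit, 3 were called in β-arrestin1/2 KO cells at basal. HECW1 at 1.18 (edgeR adjusted p = 0.00015) and NEDD4 at 1.11 (edgeR adjusted p = 0.0012) were higher and WWP2 at -0.37 (edgeR adjusted p = 0.0073) was lower. With isoproterenol HECW1 at 1.15, NEDD4 at 0.72 and NEDD4L at 0.33 were higher there. NEDD4L was lower in Gαs KO cells in both states, at -0.45 and -0.38, and HECW1 at 0.69 and HECW2 at 0.37 were higher with isoproterenol. The list medians lay between -0.07 and 0.10 in these 4 comparisons. Without wildtype basal replicate 1 WWP1 was also called lower at basal, at -0.32 in β-arrestin1/2 KO and -0.30 in Gαs KO cells.

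Among the 8 genes of the thioredoxin system and of the factors that drive TXNIP, MLX, the partner of MondoA and ChREBP, was lower in β-arrestin1/2 KO cells at basal (-0.59, edgeR adjusted p = 2.7e-05) and with isoproterenol (-0.63, edgeR adjusted p = 1.5e-05). MLXIPL, which encodes ChREBP, was lower in Gαs KO cells in both states, at -0.88 (edgeR adjusted p = 0.00033) and -0.69 (edgeR adjusted p = 0.0025), and MLX was lower there with isoproterenol, at -0.34. MLXIP, which encodes MondoA, was not called at basal in β-arrestin1/2 KO (-0.14, edgeR adjusted p = 0.24) or Gαs KO cells (0.03, edgeR adjusted p = 0.84). At basal 1 of the 8 was higher and 2 were lower in β-arrestin1/2 KO cells (list median -0.22). In Gαs KO cells 0 were higher and 1 was lower (list median 0.05). TXNRD1, a thioredoxin reductase, was lower in β-arrestin1/2 KO cells in both states, at -0.35 and -0.38, and TXNRD3 was higher at basal, at 0.41. TXN, thioredoxin itself, was higher with isoproterenol in both KO lines, at 0.44 (β-arrestin1/2) and 0.43 (Gαs). Without wildtype basal replicate 1 TXN2 at 0.325 and TXNRD2 at 0.29 were also called higher in Gαs KO cells at basal. Of the 3 VPS26 subunits, which have an arrestin fold and belong to the retromer and its relatives, VPS26C was higher in Gαs KO cells at basal (0.49, edgeR adjusted p = 9.9e-05) and with isoproterenol (0.55). With all libraries none was called by edgeR in β-arrestin1/2 KO cells in either state. VPS26 genes with an unadjusted p under 0.05 there numbered 1 at basal and 0 with isoproterenol, as did those called by DESeq2. Without wildtype basal replicate 1 VPS26A was called lower in β-arrestin1/2 KO cells at basal (-0.19, edgeR adjusted p = 0.0085), against 0.15 with all libraries. VPS26B was then called higher in Gαs KO cells (0.26).

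Over the 18 libraries, the genes whose log2 CPM followed each arrestin gene most closely among 12739 were PCF11 (Pearson r 0.956) and ZNF594 (0.946) for TXNIP, PLS3 (0.980) and CD44 (0.971) for ARRDC3, and CDC42BPA (0.973) and PDE4DIP (0.960) for ARRDC4. For ARRB2 they were PES1 (0.991) and PGK1 (0.988), for ARRDC1 SH3GLB2 (0.959) and DAB2IP (0.949), and for ARRDC2 EMD (0.961) and POLR3K (0.952). ARRB1 was followed less closely, by CAPN10 (0.930) and MYH14 (0.912), and without wildtype basal replicate 1 these values were 0.829 and 0.782. Such values describe libraries that fall into 3 cell lines and that also differ in depth and base composition. Genes that differ between the lines in the same way therefore follow each other.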

How the data were processed

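RNA-Seq was run on poly-A selected RNA of 18 libraries, 3 in each of 6 groups assigned from the sample labels. As deposited by the authors, the values are expected counts per transcript, estimated by Salmon 1.7.0, for 184844 transcripts. The values were not normalized, and the transcript index is not given in the sources used here. GRCh38 and hg38 are the builds in the submitters' processing notes. Transcripts were joined to GENCODE 29 by identifier (161798 matched, with 92.9 to 93.7% of the counts of a library), summed to genes and rounded. edgeR 4.0.16 in R 4.3.3 was used with TMM scaling, filterByExpr by group (15519 genes and 60987 transcripts kept, all 7 arrestin genes among them) and a quasi-likelihood test on all 18 libraries with a coefficient per group. Calls were made at 0.05 after Benjamini-Hochberg adjustment over all features. The SE is the log2 fold change divided by the square root of F. CPM are scaled by TMM, and TPM use annotated transcript lengths. Multiples of the wildtype or basal level are 2 raised to the log2 difference of the edgeR fit. Shares were compared by exact permutation tests on 6 libraries a line, since 3 libraries against 3 cannot go below p = 0.1, and p was adjusted over 43865 transcripts with a mean of at least 10 counts in genes with at least 2 such transcripts, in both KO lines, an adjustment chosen after seeing the data. P-values measure the spread between these replicates, whose independence beyond the label is not described.

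All 7 genes, the ARRB1 and ARRB2 transcripts with a mean of at least 10 counts, the called list members (at most 4 per list and comparison) and the 2 genes closest to each arrestin gene are named. The genes, lists and tests were chosen with earlier results of these data known. Departures of same-numbered replicates from their group means correlated by at most 0.0766 and in no set of 3 pairs above 0.1 throughout, so replicates were treated as unpaired. Alternatives were DESeq2 1.42.0 size factors and Wald test, all features with at least 1 count, only the groups compared, a replicate block, protein-coding transcripts, GC and length offsets, shares divided by length, and each library left out. The procedure was tested on simulated data. The transfected gene is not reported here.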

Additional observations from a re-analysis of the deposited data

Results flagged for a closer look

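TXNIP was flagged because its change with isoproterenol differed between Gαs KO and wildtype cells by a test of the difference itself. The value was 1.04 on the log2 scale (edgeR adjusted p = 0.0011), and it ran from 0.97 to 1.16 over 19 alternatives, with an adjusted p of at most 0.007. TXNIP was lower with isoproterenol than at basal in 3 of 3 wildtype libraries compared with every basal library (13.9 to 15.0 against 27.8 to 32.0 CPM), while in Gαs KO cells the isoproterenol libraries lay at 81.7 to 91.0 CPM and the basal libraries at 82.8 to 92.1 CPM. The basal level itself was 2.98 times higher in Gαs KO cells, and its part in the difference was not tested.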

How the results depend on the processing

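Of the 25 called differences in level or response, 0 changed direction under any alternative, 13 kept their call under all of them, 8 lost it under an alternative other than leaving out a library and 8 lost it with a library left out. Of the transcript shares, 0 passed with p adjusted over all transcripts, an alternative chosen after seeing the data, in place of 9 over the 18 planned tests. None could pass there, as the smallest possible p of 0.0022 was adjusted to 0.072 (exact permutation test). Fitting only the groups compared called 0 arrestin genes in the wildtype response (TXNIP -1.04, edgeR adjusted p = 0.088) and 2 in each KO line at basal. There the basal calls of ARRDC1 (adjusted p = 0.18) and ARRDC2 (0.099) in β-arrestin1/2 KO cells and of ARRB2 (0.25), ARRDC2 (0.074) and ARRDC4 (0.074) in Gαs KO cells were lost. The other 6 alternatives left the counts of arrestin genes called within 1.5 times. The basal ARRB2-201 call in Gαs KO cells was lost, leaving 0 transcripts called, with all transcripts of at least 1 count (-0.63, adjusted p = 0.1). The replicate block also left 0 transcripts called there (ARRB2-201 at -0.63, adjusted p = 0.055) and changed no other call. Same-numbered replicates share only a number, and in no set of libraries did every one correlate best with its own number. Protein-coding transcripts alone took away the calls of ARRB2 at basal (-0.37, adjusted p = 0.064) and ARRDC1 with isoproterenol (0.32, adjusted p = 0.13) in Gαs KO cells. GC and length offsets added ARRDC1 at basal (0.39) and ARRB2 with isoproterenol (-0.22) in Gαs KO cells, and fitting only the groups compared also added the latter (-0.18). The cause of these changes was not tested.

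With 1 library left out at a time, the arrestin genes called numbered 1 to 1 in the wildtype and β-arrestin1/2 KO responses, 0 to 0 in the Gαs KO response, 0 to 1 and 1 to 1 in the differences of the β-arrestin1/2 KO and Gαs KO responses, 3 to 4 and 4 to 5 at basal, and 2 to 4 and 4 to 5 with isoproterenol. The β-arrestin transcripts called numbered 1 to 2 and 0 to 1 at basal and 1 to 2 and 0 to 0 with isoproterenol.

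Values that were not called and changed sign were small or came from transcripts with few counts. With GC and length offsets these were ARRDC2 (0.12) and ARRDC3 (-0.18) in the wildtype response, ARRDC1 (0.0024) and ARRDC4 (-0.062) in the β-arrestin1/2 KO response, TXNIP (0.0027) in the Gαs KO response, ARRDC3 (0.22) and ARRDC4 (0.020) in the Gαs KO difference, ARRDC3 in β-arrestin1/2 KO cells at basal (-0.15) and ARRB1 in Gαs KO cells at basal (0.040). ARRDC4 in the β-arrestin1/2 KO response was -0.0033 with all genes of at least 1 count, -0.0038 with the replicate block and -0.0058 with protein-coding transcripts, which also gave TXNIP in the Gαs KO response as 0.0057 and ARRDC1 in the β-arrestin1/2 KO difference as -0.0070. ARRB1-202 in β-arrestin1/2 KO cells at basal was 0.0051 with all transcripts of at least 1 count and 0.00073 with the replicate block, which gave ARRB2-210 with isoproterenol as 0.16.

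Over left-out libraries the wildtype response ran from -0.30 to 0.10 for ARRB1, -0.37 to 0.014 for ARRB2, -0.36 to 0.064 for ARRDC1, -0.24 to 0.22 for ARRDC2, -0.14 to 0.24 for ARRDC3 and -0.029 to 0.27 for ARRDC4. The β-arrestin1/2 KO response ran from -0.011 to 0.089 for ARRB1 and -0.064 to 0.045 for ARRDC4. The Gαs KO response ran from -0.032 to 0.024 for ARRB2, -0.0088 to 0.12 for ARRDC1, -0.0083 to 0.089 for ARRDC3, -0.00092 to 0.081 for ARRDC4 and -0.041 to 0.045 for TXNIP. The difference of the β-arrestin1/2 KO response ran from -0.052 to 0.35 for ARRB1, -0.29 to 0.091 for ARRB2, -0.25 to 0.17 for ARRDC1, -0.045 to 0.42 for ARRDC2, -0.048 to 0.33 for ARRDC3 and -0.28 to 0.029 for ARRDC4. That of the Gαs KO response ran from -0.041 to 0.36 for ARRB1, -0.023 to 0.36 for ARRB2, -0.026 to 0.40 for ARRDC1, -0.10 to 0.37 for ARRDC2, -0.20 to 0.18 for ARRDC3 and -0.23 to 0.075 for ARRDC4. At basal, β-arrestin1/2 KO cells gave -0.13 to 0.24 for ARRDC3, -0.11 to 0.14 for ARRB1-202, -0.26 to 0.044 for ARRB2-207, -0.34 to 2.70 for ARRB2-210 and -0.48 to 1.33 for ARRB2-213, and Gαs KO cells gave -0.24 to 0.17 for ARRB1, -0.0010 to 0.25 for ARRB1-202, -0.32 to 0.070 for ARRB2-202, -0.15 to 0.26 for ARRB2-207 and -0.16 to 0.13 for ARRB2-216. With isoproterenol, β-arrestin1/2 KO cells gave -0.057 to 0.19 for ARRDC4, -0.27 to 0.30 for ARRB2-207 and -1.48 to 1.00 for ARRB2-210, and Gαs KO cells gave -0.49 to 0.18 for ARRB2-202, -0.42 to 0.19 for ARRB2-207, -1.63 to 0.014 for ARRB2-210 and -0.41 to 0.83 for ARRB2-213.

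The background counts of genes called moved too. In the wildtype response 72 genes were called, against 13 with only the groups compared, 187 by DESeq2, 226 with GC and length offsets and 173 without wildtype basal replicate 1. In the β-arrestin1/2 KO response 175 were called, against 113 to 1161. In the differences of responses 26 and 25 were called, against 1302 and 66 without wildtype basal replicate 1. At basal 5208 and 4864 were called, against 1501 and 1587 with only the groups compared, and with isoproterenol 4653 and 4646, against 7222 and 7454. Transcripts with few counts, such as ARRB2-210 and ARRB2-213, could not be compared with precision at this depth.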
